A study of Mus musculus with 14 samples.

Results

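The genes described here encode chromatin modifiers and remodellers: histone lysine methyltransferases (Kmt), histone lysine demethylases (Kdm), histone deacetylases (Hdac), SWI/SNF-related remodelling proteins (Smarc), chromodomain helicases (Chd), AT-rich interaction domain proteins (Arid), DNA methyltransferases (Dnmt), methylcytosine dioxygenases (Tet), the core of Polycomb repressive complex PRC2 (Ezh1, Ezh2, Suz12 and Eed) and chromobox readers (Cbx). They were chosen by a rule on gene symbols that used no measured values but was set with earlier results of these data known. Kdm5d, which lies on the Y chromosome, was left out. The rule found 91 of the 24675 genes named on the array. Of these, 87 have the symbol of a protein-coding gene and 4 that of a pseudogene or antisense transcript (Dnmt3aos, Cbx3-ps7, Hdac1-ps and Smarca5-ps). A filter on low values passed 86 of the 91, and Hdac1-ps, Hdac9, Kdm4d, Smarca1 and Smarca5-ps were not tested because their log2 values stayed between 2.12 and 4.09 on all 14 arrays.

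RNA came from sorted populations of mouse intestinal crypt cells hybridised to 14 Affymetrix Mouse Gene 2.0 ST arrays. Wild-type (WT) mice carried Lgr5-EGFP-IRES-CreERT2, which places a green fluorescent protein and a tamoxifen-dependent Cre under the Lgr5 gene, and Atg7KO mice carried the same cassette with Atg7(fl/fl) alleles. All mice, controls included, received tamoxifen for 5 days and were killed 1 month later. Cells with low CD24 were sorted by EGFP: the high gate is labelled intestinal stem cells and the low gate their transit amplifying progeny. The groups held 3 WT and 3 Atg7KO arrays of EGFP high cells and 4 WT and 4 Atg7KO arrays of EGFP low cells. Cre acts only in cells that express Lgr5, and their descendants inherit the change, so cells in which Atg7 was not removed may be present. From each sample 1 ng of RNA was amplified before hybridisation. Samples came from individual mice. The labels do not say whether a number that occurs in the titles of both gates names 1 animal. The age of the mice was not given in the sources used here.

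As background, chromatin regulators set which genes a cell can use. Remodellers of the SWI/SNF, CHD and ISWI kinds slide or evict nucleosomes with the energy of ATP, methyltransferases and deacetylases write or remove histone marks, Polycomb complexes keep genes silent, and DNMT and TET enzymes add and oxidise methyl groups on cytosine. In the intestinal crypt, stem cells and transit amplifying cells both divide, and the maintenance DNA methyltransferase Dnmt1 and the PRC2 enzyme Ezh2 are known as genes of dividing crypt cells.

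All levels below are deposited log2 values from the RMA method, and all differences are log2 differences, so that a difference of 1 is a doubling. A gene was called when the adjusted p of limma, with Benjamini-Hochberg adjustment over 15873 genes, was under 0.05. Atg7 lay lower on all Atg7KO arrays than on any WT array of the same gate, at 5.91 to 6.37 against 6.76 to 6.83 in EGFP high cells and 5.65 to 6.06 against 6.46 to 7.49 in EGFP low cells. The difference was -0.65 (SE 0.22, limma adjusted p = 0.208) and -1.02 (SE 0.19, limma adjusted p = 0.166), so Atg7 itself was not called. How many of its probes lie in the deleted part was not given in the sources used here. Lgr5, whose reporter set the gates, was higher in the high gate by 3.52 (SE 0.33) in WT and 3.32 (SE 0.33) in Atg7KO cells, with limma adjusted p = 0.000247 and 0.000138. The SD of all values on an array was 1.90 to 1.98 in the Atg7KO high group and 1.99 to 2.06 in the WT high group, and the narrowest arrays were Atg7KO-High-356 and WT-Low-411, named by group and title number. The 5 arrays with a mean of the Y-linked genes Eif2s3y and Uty between 6.52 and 6.93 were spread over the 4 groups, and the other 9 lay between 2.61 and 3.04.

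The first comparison asked how the chromatin genes differ between the stem cell gate and its progeny. Arid5b, a DNA-binding subunit of a histone demethylase complex, Smarcad1, a remodeller that helps to restore heterochromatin after replication, and Tet1, which oxidises methylated cytosine, were higher in EGFP high cells in both genotypes, with no overlap between the arrays of the gates. Kdm7a, a demethylase of repressive histone marks, was lower in EGFP high cells. In Atg7KO cells 9 of the 86 tested members were called, 7 higher and 2 lower in the high gate, where 10.9% of all genes tested were called, 4.48% higher and 6.44% lower. In WT cells limma called 0 of the 86, where 2.44% of all genes were called, 1.22% higher and 1.22% lower. Of the 86, 13 were higher and 2 lower there at an unadjusted p under 0.05, against 8.88% and 5.91% of all genes. In sorted populations fewer cells of a type and less RNA per cell cannot be told apart.

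The promoter sequences of 4 genes with a gate difference show how unlike one another these genes are upstream of their start. They are shown for the 4 genes called in the gate difference averaged over both genotypes whichever 1 of the 14 arrays was left out. Each is the 250 bases before the start site in RefSeq, build GRCm38.p6, written 5′ to 3′ on the gene's strand. Capitals mark a GC box (GGGCGG) or a TATA box (TATAAA), searched on both strands. CCAAT and the TCF motif CTTTGAT were searched in the same way. The letters of CCAAT and of the other motifs could overlap, and none of these 4 windows held CCAAT or CTTTGAT. Positions are chr10:68278727-68278976, minus strand, for Arid5b; chr6:65042341-65042590, plus strand, for Smarcad1; chr10:62887325-62887574, minus strand, for Tet1; and chr6:39206774-39207023, minus strand, for Kdm7a.
Arid5b: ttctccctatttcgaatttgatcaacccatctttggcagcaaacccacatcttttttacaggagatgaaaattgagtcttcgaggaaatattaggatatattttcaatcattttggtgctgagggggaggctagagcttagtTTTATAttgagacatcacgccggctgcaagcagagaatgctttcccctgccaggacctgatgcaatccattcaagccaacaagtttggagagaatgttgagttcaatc
Smarcad1: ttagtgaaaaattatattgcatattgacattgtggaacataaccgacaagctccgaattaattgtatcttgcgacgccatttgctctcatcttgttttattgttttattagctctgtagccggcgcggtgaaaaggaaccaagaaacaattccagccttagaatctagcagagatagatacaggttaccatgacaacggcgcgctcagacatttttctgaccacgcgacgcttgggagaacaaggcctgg
Tet1: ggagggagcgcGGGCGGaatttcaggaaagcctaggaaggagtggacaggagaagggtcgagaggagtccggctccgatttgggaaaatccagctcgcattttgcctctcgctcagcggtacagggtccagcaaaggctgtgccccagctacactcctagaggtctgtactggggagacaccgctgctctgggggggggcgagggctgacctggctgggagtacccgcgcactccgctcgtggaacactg
Kdm7a: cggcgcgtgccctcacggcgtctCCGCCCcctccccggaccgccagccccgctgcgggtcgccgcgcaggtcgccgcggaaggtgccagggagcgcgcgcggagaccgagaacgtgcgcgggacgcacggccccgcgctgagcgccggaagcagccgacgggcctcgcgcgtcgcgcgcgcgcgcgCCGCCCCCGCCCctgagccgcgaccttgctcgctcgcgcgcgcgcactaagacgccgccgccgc

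The Arid5b window holds 1 TATA box and 4 CpG dinucleotides, with 42.0% G and C. The Smarcad1 window holds 13 CpG dinucleotides and no match to the motifs searched, with 43.2% G and C. The Tet1 window holds 1 GC box and 15 CpG dinucleotides, with 62.8% G and C, and the Kdm7a window 3 GC boxes and 56 CpG dinucleotides, with 82.0% G and C. RefSeq promoters were found for 66 of the 86 tested members. Of these, 48 (72.7%) held a GC box, against 32.9% of the promoters of 27025 genes, and 3 (4.5%) held a TATA box, against 13.0%. CCAAT was in 25 (37.9%) against 34.5%, and CTTTGAT in 1 (1.5%) against 3.2%. The median number of CpG dinucleotides was 19.5 in the members' promoters and 6 in all. The match of letters is a description and was not set against the expression values.

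Arid5b had the largest rise of the called members. Its level in EGFP high cells was 7.80, 8.34 and 8.63 in WT and 8.19, 8.42 and 8.47 in Atg7KO mice, and in EGFP low cells it was 6.63, 7.28, 7.55 and 7.63 in WT and 7.13, 7.23, 7.25 and 7.75 in Atg7KO mice. All 6 high arrays thus lay above all 8 low arrays. The difference was 1.02 (SE 0.25, limma adjusted p = 0.0178) in Atg7KO and 0.99 (SE 0.25, limma adjusted p = 0.0507) in WT cells, so it was called in Atg7KO cells alone. Averaged over both genotypes, a contrast chosen after the data were seen, it was 1.01 (SE 0.18, limma adjusted p = 0.00191).

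Smarcad1 was at 7.48, 7.71 and 7.78 in WT and 7.47, 7.56 and 7.87 in Atg7KO high cells. In low cells it was at 6.97, 7.10, 7.11 and 7.33 in WT and 6.87, 7.00, 7.07 and 7.08 in Atg7KO mice. Here too no high array fell among the low ones. The difference was 0.63 (SE 0.14, limma adjusted p = 0.0129) in Atg7KO and 0.52 (SE 0.14, limma adjusted p = 0.0706) in WT cells.

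Tet1 lay near the bottom of the scale. Its level was 4.21, 4.34 and 4.44 in WT and 4.22, 4.59 and 4.74 in Atg7KO high cells, and 3.73, 3.87, 4.09 and 4.18 in WT and 3.79, 3.96, 4.01 and 4.04 in Atg7KO low cells. The lowest high array and the highest low array were close, but the gates did not overlap. The difference was 0.57 (SE 0.16, limma adjusted p = 0.0328) in Atg7KO and 0.36 (SE 0.16, limma adjusted p = 0.294) in WT cells. Tet2, an enzyme of the same reaction, lay lower on all WT high arrays (5.60 to 5.67) than on any WT low array (5.77 to 6.35), at -0.39 (SE 0.21, limma adjusted p = 0.435), and was at 0.06 in Atg7KO cells. Tet3 was at -0.0031 in WT and 0.36 in Atg7KO cells.

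Kdm7a ran the other way. High arrays were at 6.03, 6.06 and 6.84 in WT and 5.85, 5.93 and 6.51 in Atg7KO mice, against 6.98, 7.11, 7.20 and 7.61 in WT and 6.28, 7.16, 7.39 and 7.72 in Atg7KO low cells. The gates were apart in WT, whereas in the knockout Atg7KO-Low-356 lay below Atg7KO-High-386. The difference was -1.04 (SE 0.31, limma adjusted p = 0.0422) in Atg7KO and -0.92 (SE 0.31, limma adjusted p = 0.147) in WT cells. The other 15 tested demethylases were not called between the gates in either genotype alone, and the family median was 0.05 in WT and -0.01 in Atg7KO cells. The nearest of them, Kdm2b, which binds unmethylated CpG islands and brings a Polycomb complex to them, was at 0.53 (SE 0.17, limma adjusted p = 0.0612) in Atg7KO cells.

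**Figure D1:**
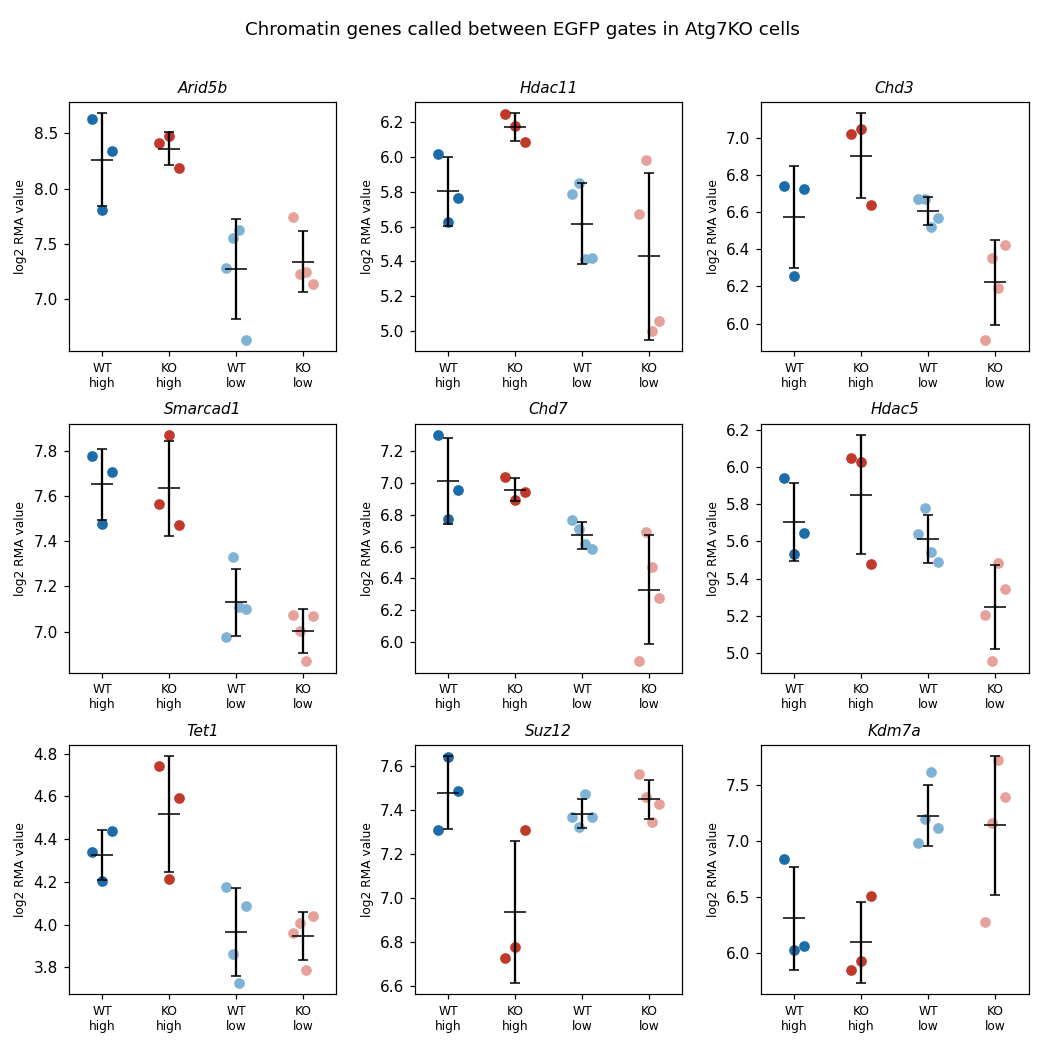
Deposited log2 RMA values of the 9 chromatin genes called between the EGFP gates in Atg7KO cells. Each point is 1 array (3 in each EGFP high group, 4 in each EGFP low group), the horizontal bar is the group mean and the vertical bar 1 SD; axes differ between panels and do not start at 0. Arid5b, Smarcad1, Tet1 and Chd7 show high arrays above low arrays in both genotypes, whereas the WT groups of Chd3, Hdac5 and Hdac11 overlap, and Suz12 is low on 2 of the 3 Atg7KO high arrays.

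Among the chromodomain helicases, Chd7 and Chd3 were higher in the high gate of Atg7KO mice. Chd7, a remodeller of enhancers, was at 6.89, 6.94 and 7.04 in Atg7KO high cells against 5.88, 6.28, 6.47 and 6.69 in low cells, and at 6.77, 6.96 and 7.31 against 6.58, 6.62, 6.71 and 6.77 in WT. The gates did not overlap in either genotype, although the nearest WT arrays both round to 6.77. The difference was 0.63 (SE 0.18, limma adjusted p = 0.0383) in Atg7KO and 0.34 (SE 0.18) in WT cells, the latter not called. Chd3, an ATPase of the NuRD repressor complex, was at 6.64, 7.02 and 7.05 in Atg7KO high cells against 5.91, 6.19, 6.35 and 6.43 in low cells, a difference of 0.68 (SE 0.17, limma adjusted p = 0.0197). In WT its arrays were mixed, at 6.26, 6.73 and 6.74 against 6.52, 6.57, 6.67 and 6.67, with a difference of -0.03.

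Of the deacetylases, Hdac5 and Hdac11 rose in the Atg7KO high gate, and Hdac1 had the next smallest p of the members not called. Hdac5, a class IIa enzyme that shuttles between nucleus and cytoplasm, was at 5.48, 6.03 and 6.05 against 4.96, 5.21, 5.34 and 5.49, a difference of 0.60 (SE 0.18, limma adjusted p = 0.0415). Atg7KO-High-386 lay inside the range of the low arrays. Hdac11, the only class IV enzyme, was at 6.08, 6.17 and 6.24 against 5.00, 5.06, 5.67 and 5.98, a difference of 0.74 (SE 0.22, limma adjusted p = 0.0453) with the gates apart. Their WT differences were 0.09 and 0.19. Hdac1, a catalytic subunit of NuRD, Sin3 and CoREST complexes, was at 7.25, 7.36 and 8.68 against 8.27, 8.60, 8.90 and 9.07, a difference of -0.95 (SE 0.30, limma adjusted p = 0.0573), and at 0.17 in WT. Only Atg7KO-High-356 and Atg7KO-High-348 were low for Hdac1.

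Suz12, the subunit that holds PRC2 together, was the second member to fall in the high gate of Atg7KO mice. It was at 6.73, 6.78 and 7.31 in Atg7KO high cells against 7.34, 7.43, 7.46 and 7.56 in low cells, a difference of -0.51 (SE 0.15, limma adjusted p = 0.0457). Atg7KO-High-386 was just under the lowest low array. In WT the gates overlapped, at 7.31, 7.48 and 7.64 against 7.32, 7.37, 7.37 and 7.47. Ezh2, the main catalytic subunit of PRC2, had a different pattern: in WT it was at 8.44, 8.58 and 8.69 in high cells against 7.71, 7.87, 7.88 and 8.31 in low cells, a difference of 0.62 (SE 0.17, limma adjusted p = 0.0624), and in Atg7KO cells at 8.13, 8.28 and 8.55 against 7.84, 8.04, 8.08 and 8.26, a difference of 0.26. The WT gates did not overlap and the Atg7KO gates did. Eed, the PRC2 subunit that reads the complex's own mark, was at 8.41, 8.59 and 8.59 in WT high cells against 7.91, 8.20, 8.32 and 8.34 in WT low cells, a difference of 0.33 (SE 0.14, limma adjusted p = 0.274), and at 0.10 in Atg7KO cells.

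The rows of the Dnmt family, which is set by symbol and includes the antisense transcript Dnmt3aos, were all positive between the gates. All 5 tested rows had a difference above 0 in each genotype. Their median was 0.22 in WT and 0.32 in Atg7KO cells, against 0.03 and 0.02 for all genes tested. Dnmt3aos, Dnmt3b and Dnmt3l lay near the bottom of the scale, between 3.73 and 4.94 on all arrays. Centring each array on its median left 4 of the 5 above 0 in Atg7KO cells. Dnmt1 was at 9.27, 9.40 and 9.49 in WT and 9.12, 9.17 and 9.22 in Atg7KO high cells, and at 8.91, 8.91, 8.92 and 9.14 in WT and 8.46, 8.77, 8.97 and 9.02 in Atg7KO low cells. Its gates did not overlap within either genotype. The difference was 0.41 (SE 0.15, limma adjusted p = 0.179) in WT and 0.36 (SE 0.15, limma adjusted p = 0.129) in Atg7KO cells, so neither was called. The de novo enzymes Dnmt3a and Dnmt3b were at 0.22 and 0.25 in WT and at 0.09 and 0.32 in Atg7KO cells, also not called.

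Most of the Smarc family lay on 1 side in WT. The family is set by symbol, so besides subunits of the SWI/SNF complex it holds other genes, such as Smarcad1 and Smarcal1. Of its 12 tested genes, 11 were above 0 between the gates in WT, with a median of 0.36, and 6 of 12 in Atg7KO cells, with a median of 0.00. Leaving out any 1 array kept the WT count between 10 and 12. The Atg7KO median was 0.15 when the values were quantile normalized again and -0.10 with arrays centred on their medians. Smarcd2, Smarcc1 and Smarca4, which are accessory, scaffold and ATPase subunits of the complex, were at 0.57 (SE 0.15, limma adjusted p = 0.0686), 0.51 (SE 0.16, limma adjusted p = 0.125) and 0.26 in WT, with WT gates that did not overlap, and at 0.14, 0.02 and -0.01 in Atg7KO cells. None of them was called in either genotype alone. Hdac3, the deacetylase of the NCoR complex, had the same kind of profile, at 0.66 (SE 0.20, limma adjusted p = 0.101) in WT and -0.22 in Atg7KO cells. A lean to 1 side in WT was not particular to the Smarc family. Above 0 there were 9 of 10 Hdac, 5 of 5 Dnmt, 6 of 8 Cbx and 3 of 4 PRC2 genes. The counts were 7 of 10 for Chd, 5 of 8 for Kmt, 10 of 16 for Kdm, 5 of 10 for Arid and 1 of 3 for Tet genes.

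The methyltransferases, chromobox readers and Arid genes had few clear differences besides Arid5b. Kmt2d, a methyltransferase of enhancers, was at 7.62, 7.65 and 7.67 in Atg7KO high cells against 6.72, 7.22, 7.31 and 7.40 in low cells, a difference of 0.49 (SE 0.18, limma adjusted p = 0.0972) with no overlap. Its close relative Kmt2c lay the other way in WT, lower on all high arrays (7.14, 7.26 and 7.43) than on any low array (7.48 to 7.89), at -0.36 (SE 0.16, limma adjusted p = 0.305). Cbx6, a Polycomb reader, was at 4.58, 4.75 and 5.16 in WT high cells against 4.25, 4.27, 4.28 and 4.46 in low cells, a difference of 0.52 (SE 0.19, limma adjusted p = 0.192). Hdac6, a deacetylase of tubulin in the cytoplasm, was at 5.29, 5.34 and 5.69 against 4.88, 4.91, 5.05 and 5.19 in WT, a difference of 0.43 (SE 0.17, limma adjusted p = 0.231). None of these was called. All 8 Cbx rows were above 0 in Atg7KO cells, with a median of 0.10, and 4 of 8 with arrays centred on their medians. Arid1a was at 0.33 in WT and 0.21 in Atg7KO cells, with overlapping gates.

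Across the 86 members, 62 were above 0 between the gates in each genotype, and 24 below 0. Of all genes, 54.7% were above and 45.3% below 0 in WT, and 52.1% and 47.9% in Atg7KO cells. The median was 0.19 in WT, where that of all genes was 0.03, and 0.10 in Atg7KO cells, where that of all genes was 0.02. With each array centred on its median, 43 of the 86 were above 0 in Atg7KO cells and 66 in WT. That centring also moved the median of all genes in Atg7KO cells, from 0.02 to -0.08. In Atg7KO cells 66 were above 0 when the values were quantile normalized again and 64 after cyclic loess. The count in the knockout thus depends on the scaling. The arrays of the gates did not overlap for 20 members that were higher and 3 that were lower in WT, against 9.97% and 6.52% of all genes, and for 14 and 2 in Atg7KO cells, against 10.8% and 11.8%. Arid5b, Chd7, Dnmt1, Smarcad1 and Tet1 were higher with no overlap in both genotypes, as were 2.46% of all genes. The 2 comparisons share no sample. Members had the same sign in both for 52 of 86 (60.5%; all genes 56.6%), and the correlation of the differences across members, which are not independent replicates, was 0.27 (Pearson) and 0.20 (Spearman), against 0.464 and 0.267 over all genes.

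**Figure D2:**
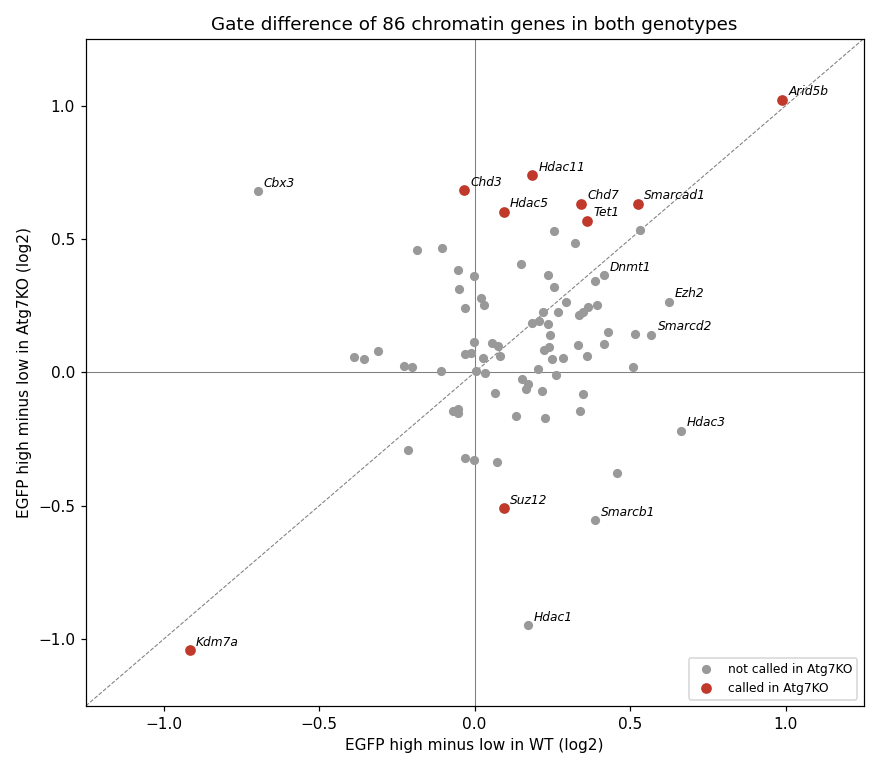
Log2 difference between EGFP high and low cells in WT (horizontal) and Atg7KO (vertical) for the 86 tested chromatin genes, 1 point each. Red points were called in Atg7KO cells, grey points were not, and the dashed line marks equal differences. Arid5b (0.99 and 1.02) and Kdm7a (-0.92 and -1.04) lie at the ends of the line, whereas Hdac1 (0.17 and -0.95), Hdac3 (0.66 and -0.22) and Smarcb1 (0.39 and -0.55) lie far below it.

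The difference averaged over both genotypes, a contrast chosen after the data were seen, used all 14 arrays at once and called 9 members, 8 higher and 1 lower, against 5.75% and 6.24% of all genes. Besides Arid5b, Smarcad1 (0.58, SE 0.10, limma adjusted p = 0.00204), Tet1 (0.47, SE 0.11, limma adjusted p = 0.0145) and Kdm7a (-0.98, SE 0.22, limma adjusted p = 0.00911), these were Chd7 (0.49), Ezh2 (0.44), Dnmt1 (0.39), Smarcd2 (0.35) and Kdm2b (0.39). The count was between 5 and 9 with 1 array left out, and 5 without Atg7KO-High-348 or without WT-High-412. How many of all genes were called in these refits was not counted. The range therefore cannot show whether the members changed more than other genes did.

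The count of 9 called in Atg7KO cells alone rested more on single arrays. It was 1 without Atg7KO-High-356 (Smarcad1) and 2 without Atg7KO-High-348 (Tet1 and Smarcb1, the latter not among the 9), so that Arid5b lost its call in both cases and Smarcad1 in the second. The share of all genes called fell too, from 10.9% to 4.92% and 5.36%. The count of members was 3 without Atg7KO-Low-386 (7.0% of all genes called), 4 without Atg7KO-Low-387 (8.04%) or WT-High-412 (9.11%) and 5 without WT-High-411 (9.6%). Without both of the narrowest arrays it was 2, Arid5b and Smarcad1 (6.99% of all genes). With the SD of each array as a covariate it was 1, Cbx5, and none of the 9 was called (3.12% of all genes). When the values were quantile normalized again 10 were called (10.7% of all genes), of which 5 were among the 9, and after cyclic loess 8 (10.3%), of which 4 were. Hdac5, Kdm7a, Suz12 and Tet1 were called under neither. In WT, 1 member was called without Atg7KO-Low-356 (Arid5b), WT-Low-341 (Hdac3), WT-Low-407 (Ezh2) or WT-Low-411 (Smarcd3). Of all genes, 2.78%, 1.92%, 1.54% and 2.16% were called in these 4 cases. With array weights, which give noisy arrays less influence, limma called 8 members in WT: Arid5b, Cbx6, Ezh2, Hdac3, Kdm7a, Smarcad1, Smarcc1 and Smarcd2. That is 9.3% of the members, where 7.57% of all genes were called.

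Markers of some other crypt cells moved with the gates in both genotypes, and most cell cycle genes were higher in the high gate in WT alone. The mean over the 12 goblet cell markers was 9.15 to 9.54 on WT high arrays and 10.5 to 11.0 on WT low arrays, and 7.68 to 9.37 against 10.2 to 10.6 in Atg7KO mice. For the 13 enteroendocrine markers these ranges were 6.17 to 6.72 against 7.42 to 8.35 in WT and 5.62 to 7.38 against 7.45 to 8.59 in Atg7KO mice. Of 14 enterocyte markers, 11 were below 0 between the gates in WT (median -0.43) and 14 in Atg7KO cells (median -1.17). Of 23 S phase genes, 23 were above 0 between the gates in WT (median 0.55) and 9 in Atg7KO cells (median -0.01). Of 23 G2 and M phase genes, 22 were above 0 in WT (median 0.25) and 4 in Atg7KO cells (median -0.26). With the mean of the S, G2 and M phase lists as a covariate, 52 of the 86 members were above 0 in WT, and limma called 0 of them and 0.0063% of all genes. In Atg7KO cells 8 were called with that covariate (8.82% of all genes), of which 6 were among the 9, and Chd7, Hdac5 and Suz12 were not. The part of the other cell types in the differences of the chromatin genes was not tested.

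The second comparison asked what the loss of Atg7 changes in the stem cell gate. No chromatin gene was called: limma found 0 of 86, and 0.0126% of all genes were called. At an unadjusted p under 0.05, 11 of the 86 were lower and 0 higher in Atg7KO cells, where 9.88% and 5.99% of all genes were. With array weights limma called 3, Hdac1, Smarcd1 and Suz12, which is 3.49% of the members where 4.43% of all genes were called. Without Atg7KO-High-386 it called 1, Hdac1, and 0.271% of all genes. The genes with the smallest p came from the Smarc family, the deacetylases and PRC2.

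Suz12 had a difference of -0.54 (SE 0.16, limma adjusted p = 0.181) between Atg7KO and WT high cells, with values as above: the WT array at 7.31 and Atg7KO-High-386 at 7.31 nearly met, and the other knockout arrays were far below. Hdac1 differed by -1.01 (SE 0.32, limma adjusted p = 0.186), with 8.43, 8.76 and 9.12 in WT and only 2 of the 3 knockout arrays below that range. Hdac2, its close relative in the same complexes, was at 9.26, 9.58 and 9.67 in WT and at 8.92, 8.96 and 9.17 in Atg7KO cells, a difference of -0.48 (SE 0.17, limma adjusted p = 0.208) with no overlap. Hdac3 was at 7.72, 7.84 and 7.91 in WT and 7.14, 7.30 and 7.37 in Atg7KO cells, a difference of -0.55 (SE 0.21, limma adjusted p = 0.243), also with no overlap.

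In the Smarc family, which is not limited to SWI/SNF subunits, all 12 tested genes were below 0 in Atg7KO high cells. Their median was -0.34, where the median of all genes was -0.03. The mean level of the family on an array was 7.95 to 8.05 in WT high cells and 7.43 to 7.78 in Atg7KO high cells, and 7.59 to 7.73 and 7.53 to 7.68 in the low gates. The WT high arrays therefore stood above the other 3 groups, which overlapped one another. Smarcd1, an accessory SWI/SNF subunit, was at 6.51, 6.93 and 7.12 in WT and 6.15, 6.25 and 6.26 in Atg7KO high cells, a difference of -0.63 (SE 0.19, limma adjusted p = 0.181). Smarcb1, a core subunit and tumour suppressor, was at 8.43, 8.59 and 8.90 against 7.52, 8.04 and 8.45, a difference of -0.64 (SE 0.22, limma adjusted p = 0.215), and Atg7KO-High-348 lay inside the WT range. Smarcc1, a scaffold subunit, was at 9.01, 9.18 and 9.24 against 8.52, 8.73 and 8.80, a difference of -0.46 (SE 0.17, limma adjusted p = 0.240). In each of Smarcd1 and Smarcc1 no knockout array reached the WT range. Smarce1, a subunit that binds DNA, was at 9.36, 9.43 and 9.54 against 8.42, 8.63 and 8.96, a difference of -0.78 (SE 0.34, limma adjusted p = 0.285), also with no overlap. These WT high arrays are the same as in the gate comparison above, so the 2 results are not independent.

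Smarca4, the SWI/SNF complex ATPase also known as Brg1, was at 9.20, 9.24 and 9.34 in WT and at 8.73, 8.99 and 9.08 in Atg7KO high cells, a difference of -0.33 (SE 0.15, limma adjusted p = 0.297) with no overlap. Smarcad1, which has an ATPase of the same kind but works outside the complex, differed by -0.02. The family median was -0.20 when the values were quantile normalized again and -0.18 after cyclic loess, with 1 of 12 above 0 in each case. With 1 array left out, 11 or 12 of the 12 were below 0.

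**Figure D3:**
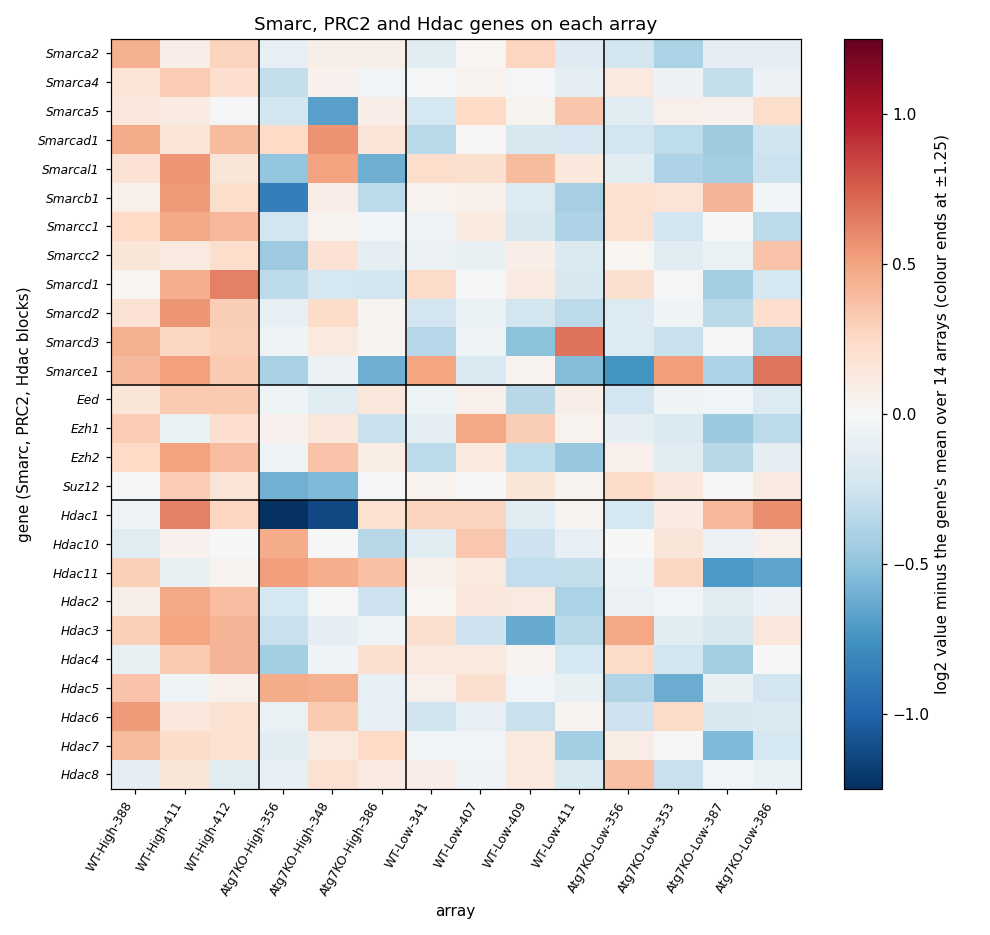
Deposited log2 values of the tested Smarc, PRC2 and deacetylase genes on each of the 14 arrays, as the difference from the gene's mean over all arrays (colour, red above and blue below the mean). Vertical lines part the 4 groups and horizontal lines the 3 families. Of the 12 Smarc genes, 12, 12 and 11 are above their mean on the WT high arrays, 1 on Atg7KO-High-356, 9 on Atg7KO-High-348 and 5 on Atg7KO-High-386. Hdac1 and Suz12 are lowest on Atg7KO-High-356 and Atg7KO-High-348.

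In other families of the high gate, no member other than Kdm1a, Chd1 and the PRC2 gene Suz12 had an unadjusted p under 0.05. Kdm1a, the LSD1 demethylase of the CoREST complex, was at 8.25, 8.36 and 8.46 in WT and 7.64, 7.90 and 8.19 in Atg7KO high cells, a difference of -0.44 (SE 0.16, limma adjusted p = 0.228). Chd1, a remodeller that travels with transcribing polymerase, was at 7.55, 7.63 and 7.64 against 7.11, 7.12 and 7.38, a difference of -0.41 (SE 0.15, limma adjusted p = 0.235). Neither overlapped. All 4 PRC2 genes were below 0, with a median of -0.27, which was -0.05 when the values were quantile normalized again or after cyclic loess. Of the 8 Kmt genes 7 were below 0, with a median of -0.10, but 2 of 8 with a median of 0.11 when the values were quantile normalized again. Of 16 Kdm genes 12 were below 0, with a median of -0.23, which was -0.12 when quantile normalized again and -0.08 after cyclic loess. Arid1a, the DNA-binding subunit of SWI/SNF that is often mutated in tumours, was lower on all 3 knockout arrays (8.48 to 8.65) than on any WT array (8.79 to 8.87), at -0.27 (SE 0.19, limma adjusted p = 0.493), and Arid5b was at 0.10. The X-linked demethylases Kdm5c and Kdm6a were at -0.41 and -0.16. The DNA methyltransferases Dnmt1, Dnmt3a and Dnmt3b were at -0.22, -0.17 and 0.09, and Tet1, Tet2 and Tet3 at 0.19, -0.07 and -0.07. Cbx3, which encodes a heterochromatin protein, was at 1.20 but is the least repeatable member, with a within-group SD of 1.02 and values from 8.63 to 11.8.

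Over the 86 members, 62 were below 0 and 24 above in Atg7KO high cells, against 53.8% and 46.2% of all genes, with a median of -0.17. The arrays did not overlap for 21 that were lower and 3 that were higher, against 15.2% and 10.2% of all genes. Scaling mattered here. When the values were quantile normalized again, or after cyclic loess, 49 were below 0 and the median was -0.02. With arrays centred on their medians, which were 0.10 higher in Atg7KO than in WT high cells on average, 71 were below 0. Differences also followed the level of the gene: the median of all genes was -0.24 among the highest 20% of tested genes by mean level, where 2 of 32 members were above 0 with a median of -0.28, and 0.13 among the lowest 20%, where 6 of 7 members were above 0 with a median of 0.14. Of the 12 Smarc genes, 7 are among the highest 20%.

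Cell cycle genes and markers of some other cells were also lower in this comparison. Of 23 S phase genes 20 were below 0 (median -0.49), and of 23 G2 and M phase genes 23 (median -0.48). The mean of the G2 and M phase list was 8.41 to 8.48 on WT and 7.89 to 8.10 on Atg7KO high arrays. Paneth cell markers were below 0 for 10 of 11, with a list mean of 9.62 to 10.7 in WT and 8.17 to 9.41 in Atg7KO mice, goblet cell markers for 12 of 12 (9.15 to 9.54 and 7.68 to 9.37) and enterocyte markers for 14 of 14 (7.86 to 9.03 and 7.68 to 7.83). Of 13 enteroendocrine markers 7 were below 0, and of 7 leukocyte markers 5. Only 3 of 8 tuft cell markers and 1 of 6 stroma and endothelium markers were below 0. With the mean of the cell cycle lists as a covariate, 36 of the 86 members were above 0 and 10 of the 12 Smarc genes below 0, with a family median of -0.29. The part of the other cells in these differences was not tested.

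**Figure D4:**
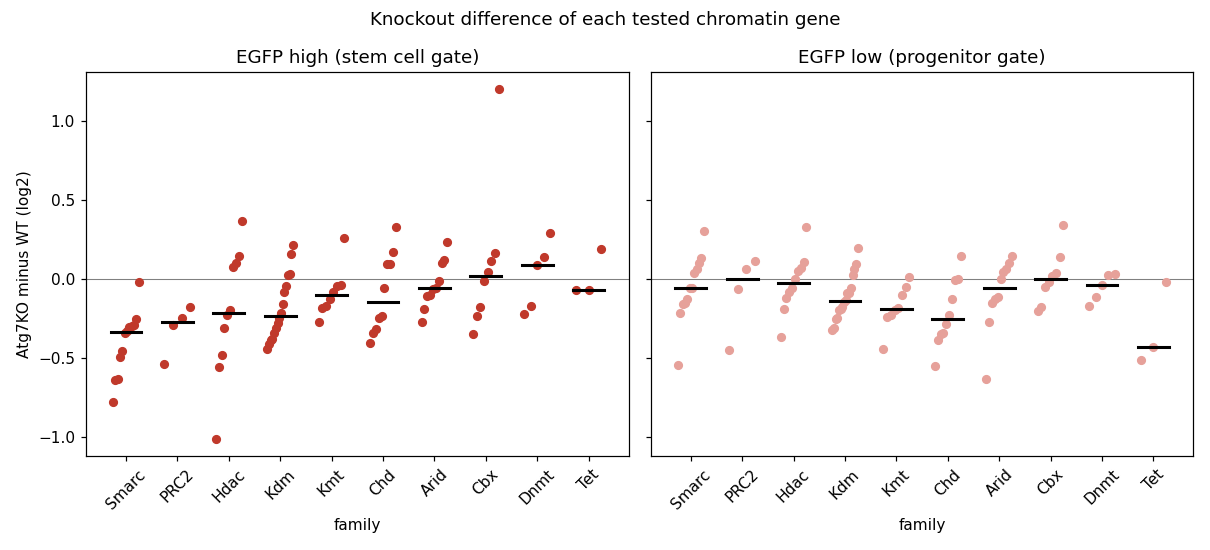
Log2 difference between Atg7KO and WT for each tested chromatin gene (point) by family, in EGFP high cells (left) and EGFP low cells (right); the bar is the family median. The 12 Smarc genes are all below 0 in the high gate (median -0.34) and spread around 0 in the low gate (median -0.06), and the Cbx point at 1.20 is Cbx3.

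The third comparison asked what the loss of Atg7 changes in the progeny gate. Again limma called 0 of the 86, where 0.0063% of all genes were called, and the alternatives, array weights included, called 0 as well. At an unadjusted p under 0.05, 8 were lower and 1 higher, against 3.4% and 3.86% of all genes. Members were below 0 for 59 and above for 27, with a median of -0.09, against 49.7% and 50.3% of all genes and a median of 0.00. The arrays did not overlap for 5 members that were lower and 0 that were higher, against 1.69% and 1.71% of all genes.

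Arid2, a subunit of the PBAF form of SWI/SNF, had the smallest p. It was at 7.51, 7.64, 8.05 and 8.28 in WT and 6.99, 7.25, 7.25 and 7.46 in Atg7KO low cells, a difference of -0.63 (SE 0.17, limma adjusted p = 0.495) with no overlap. Kmt2c, a methyltransferase of enhancers, was at 7.48, 7.50, 7.66 and 7.89 against 6.98, 7.16, 7.19 and 7.42, a difference of -0.45 (SE 0.15, limma adjusted p = 0.570). Smarcal1, which anneals DNA at stalled replication forks, was at 6.16, 6.23, 6.25 and 6.42 against 5.59, 5.64, 5.76 and 5.89, a difference of -0.54 (SE 0.20, limma adjusted p = 0.627). Chd3 and Hdac5 were the other members whose arrays did not overlap, at -0.39 (SE 0.16) and -0.36 (SE 0.16). Each of these 5 thus lay lower on all 4 Atg7KO low arrays than on any WT low array, and none was called.

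Ezh1, the PRC2 enzyme of cells that divide little, was at -0.45 (SE 0.16, limma adjusted p = 0.613) and Tet2 at -0.52 (SE 0.20, limma adjusted p = 0.647), both with overlapping arrays. Chd6, a further remodeller of the helicase family, was at -0.55 (SE 0.24) and Chd7 at -0.34 (SE 0.18). Cbx8, a reader in Polycomb complex PRC1, was the member that was higher at 0.34 (SE 0.14, limma adjusted p = 0.665). By family, 9 of 10 Chd genes were below 0 with a median of -0.25, 7 of 8 Kmt genes with a median of -0.19 and 3 of 3 Tet genes with a median of -0.43. With arrays centred on their medians these counts were 7, 7 and 2. The Smarc genes, all below 0 in the high gate, were split in the low gate, 7 below and 5 above with a median of -0.06 (9 below when the values were quantile normalized again). In this gate S phase genes were above 0 for 18 of 23 (median 0.10) and Paneth cell markers below 0 for 11 of 11, with a list mean of 9.51 to 11.5 in WT and 9.25 to 10.2 in Atg7KO mice. Their part in these differences was not tested.

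Whether the effect of Atg7 loss differs between the gates was tested directly as the difference of the 2 knockout effects, high minus low. Limma called 0 of the 86, where 0.0063% of all genes were called, as it did with array weights, and 2 were positive and 5 negative at an unadjusted p under 0.05, against 5.53% and 8.49% of all genes. The 5 members with the smallest p were Smarcb1 at -0.94 (SE 0.30, limma adjusted p = 0.252), Hdac3 at -0.88 (SE 0.28, limma adjusted p = 0.252), Chd3 at 0.72 (SE 0.24, limma adjusted p = 0.256), Suz12 at -0.60 (SE 0.22, limma adjusted p = 0.272) and Hdac1 at -1.12 (SE 0.43, limma adjusted p = 0.288). Smarcb1 in the low gate was at 7.96, 8.20, 8.42 and 8.44 in WT and 8.33, 8.54, 8.56 and 8.80 in Atg7KO mice, the reverse of its order in the high gate. For the 86 members the median of this contrast was -0.05 and that of all genes -0.03. The median of the members was 0.09 when the values were quantile normalized again and 0.10 after cyclic loess, so its sign depends on the scaling. Averaged over both gates, a contrast chosen after the data were seen, limma called 0 members between Atg7KO and WT, where 0.0063% of all genes were higher and 0.0189% lower. So although gate differences were called in Atg7KO and not in WT cells, no member was shown to differ between the genotypes.

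Other chromatin genes came from lists chosen by function. Between the gates in WT, Bcl7a, a SWI/SNF subunit, rose by 0.88 (SE 0.16, limma adjusted p = 0.0114), and Sap30, a subunit of the Sin3 deacetylase complex, by 0.73 (SE 0.18, limma adjusted p = 0.0494). They were the only called genes among the 116 tested in those lists in WT (1.72% higher and 0 lower, where 1.22% of all genes were called in each direction). In Atg7KO cells Bcl7a also rose, by 0.59 (SE 0.16, limma adjusted p = 0.0295). Srcap (0.63) and Ep400 (0.49), ATPases that exchange histone variants, the methyltransferases Smyd3 (0.91) and Carm1 (0.55) and the PRC1 subunit Phc3 (0.49) rose with it, and Mta2 of NuRD (-0.55) and the cytidine deaminase Apobec1 (-0.98) fell. These are 6 of 116 higher (5.17%) and 2 lower (1.72%), where 4.48% and 6.44% of all genes were called.

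Between Atg7KO and WT limma called none of the genes of these lists in either gate. In the high gate 14 of 14 tested NuRD and other corepressor subunits were below 0, with a median of -0.41 and 4 at an unadjusted p under 0.05. Of the histone acetyltransferases 13 of 13 were below 0, with a median of -0.27. Of 13 SWI/SNF subunits with other symbols 11 were, with a median of -0.24. Of 8 PRC2 accessory subunits 6 were, with a median of -0.24. Of 13 PRC1 subunits 9 were, with a median of -0.03, and of 8 COMPASS subunits, partners of the Kmt2 enzymes, 7 were, with a median of -0.33. Of all genes, 53.8% were below 0 in this gate and 9.88% were lower at an unadjusted p under 0.05. In the group of tested genes with the highest mean levels, 23.3% were above 0 and the median was -0.24. Values of these lists under other scalings are not given here. The counts thus cannot show whether the lists changed more than other genes of similar level. Uhrf1, which brings Dnmt1 to newly copied DNA, was at -0.87 (SE 0.31, limma adjusted p = 0.213) in the high gate and -0.05 in the low gate. In the low gate these lists were mixed: NuRD and corepressor subunits were above 0 for 8 of 14 with a median of 0.05, and acetyltransferases for 4 of 13 with a median of -0.12.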

How the data were processed

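Levels are the log2 values that the authors deposited, made with Affymetrix Expression Console and RMA (background correction, quantile normalization and summary per probe set), per the submitters' processing notes. They ran from 1.65 to 13.8, and array medians from 4.30 to 4.49. Of 25429 probe sets, 24675 had 1 gene symbol in the platform annotation and 754 had none. The low-value filter kept genes that reached an array's 40th percentile in 3 or more of the arrays, which left 15873 for testing. A model with 4 group means over all 14 arrays was fitted under R 4.3.3 with limma 3.58.1 and its eBayes moderation, with Benjamini-Hochberg adjustment over all genes tested and a threshold of 0.05. On simulated data, comparisons of 2 groups recovered 7.41% to 10.8% of true differences of 0.5, 46% to 67.6% of those of 1 and 91.4% to 97.2% of those of 2. For the difference between gates these were 3.28%, 25.3% and 92.9%. True differences near 0.5 are thus mostly missed, and a count of 0 called does not show that they are absent. No sampling depth applies to arrays, whose number limits the precision, and p-values set each difference against the spread between these samples.

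Named genes were those called, up to 10 by largest rise and 10 by largest fall in each comparison, filled to 10 by smallest p, with the 5 smallest p for the difference between gates, the smallest p of each family, and a set list of well-known genes. Others named were chosen after their values were seen. The members and lists were chosen with earlier results of these data known. Alternatives were other normalizations, filters, priors, array weights, covariates (array SD, cell cycle genes, Y-linked genes), a block for shared title numbers, and each array left out. Ddx3y had no row, so the Y-linked covariate used Eif2s3y and Uty. The highest correlation between arrays was 0.9908, so no pair held identical values. Promoters came from RefSeq, GRCm38.p6.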

Additional observations from a re-analysis of the deposited data

Results flagged for a closer look

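In 10 of 172 groups of 4 arrays (86 tested members in the WT and Atg7KO low gates), 1 array stood apart from the other 3, judged by its gap to the nearest array as a share of the group's range against Dixon's critical value for 4 samples. Chance alone gives about 1 such group in 20, so this number is close to what chance gives. Dnmt1 was at 9.14 on WT-Low-407 and its nearest neighbour at 8.92, a share of 0.951. Dnmt3b on the same array was at 4.09, with the nearest at 4.24, a share of 0.841. WT-Low-411 was low for Chd6 at 6.23 with the nearest at 6.30 (share 0.874) and for Kdm5b at 6.59 with the nearest at 7.20 (share 0.844). It was high for Cbx6 at 4.46 with the nearest at 4.28 (share 0.853) and for Arid4b at 7.73 with the nearest at 7.32 (share 0.859). Kdm3a was at 6.96 on WT-Low-409 with the nearest at 7.19 (share 0.868). Atg7KO-Low-356 was low for Kmt2e at 7.86 with the nearest at 8.38 (share 0.876) and for Kmt5a at 8.21 with the nearest at 8.60 (share 0.857). Hdac6 on Atg7KO-Low-353 was at 5.40 with the nearest at 4.98, a share of 0.846. None of these genes was called in a comparison of 2 groups, and Dnmt1 was called in the gate difference averaged over both genotypes.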

How the results depend on the processing

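The count of members called in EGFP high cells between Atg7KO and WT was 0, 3 with array weights (4.43% of all genes), and 0 to 1 with 1 array left out (0.0063% to 0.271%). Between the gates in WT it was 0, but 8 with array weights (7.57% of all genes). It was 1 each with a limma-trend prior (2.6%), a random replicate block (2.8%), a stricter filter (4.13%) or the Y-linked covariate (2.07%). With 1 array left out it was 0 to 1 (0.649% to 2.78%). Between the gates in Atg7KO cells it was 9, but 5 with median centring (10.7% of all genes) and 2 when only the groups compared were fitted (6.47%). It was 2 without the 2 narrowest arrays (6.99%) and 1 with the array SD as a covariate (3.12%), which was Cbx5, not among the 9. With 1 array left out it was 1 to 9 (4.92% to 13.4%). Shared title numbers could pair arrays of the gates, but the labels do not say so, and they were not taken as pairs. The correlations of deviations were 0.115, 0.182 and -0.04. So few correlations from groups of 3 or 4 arrays cannot decide whether a shared number names 1 animal. A fixed replicate block, which left 1 residual degree of freedom, gave 1 call in Atg7KO cells (Cbx3, not among the 9), where 3.84% of all genes were called. A random block gave 10, the 9 among them, where 12.4% of all genes were called. Over all genes the calls between the gates in Atg7KO were 1734, against 495 with the array SD as a covariate and 1027 when only the groups compared were fitted. Between the gates in WT they were 2.44% of the genes tested, against 1201 genes (of 15873) with array weights. Kdm6a, never called, was at -0.15 between the gates in Atg7KO cells and turned to 0.0991 with the fixed block, 0.0026 when quantile normalized again and 0.27 without Atg7KO-High-348 (with 1 array left out, -0.43 to 0.27). The cause of these changes was not tested. The fixed block could not be fitted between genotypes.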

Other observations

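Within groups, Cbx3 varied far more than the other members, with an SD of 1.02 against a median of 0.227 over the members. It was followed by Tet3 (0.52), Smarce1 (0.47), Kdm7a (0.45), Hdac1 (0.45) and Kdm6a (0.43). Cbx3 ran from 8.63 to 11.8, and its highest arrays were WT-Low-341 at 11.8, Atg7KO-High-356 at 11.5 and Atg7KO-High-386 at 11.3. The pseudogene row Cbx3-ps7 stayed between 4.97 and 5.92 and its differences were 0.05 in EGFP high and -0.21 in EGFP low cells between Atg7KO and WT. Probe sets of genes with near-identical copies may share signal.

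The X-linked Kdm6a and Kdm5c can be set beside the Y-linked genes Eif2s3y and Uty. On the 5 arrays with high Y-linked values Kdm6a was at 7.01, 6.96, 7.75, 6.39 and 7.20, and on the other 9 it lay between 7.28 and 7.80. Kdm5c was at 7.20, 7.62, 7.51, 6.75 and 7.19 on those 5 arrays and between 7.16 and 7.89 on the others. These values are a description without a test.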
